A study of Mus musculus with 16 samples.

Results

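The genes described here are 10 transcription factor genes of the primitive streak and early mesoderm: T (also called Brachyury), Eomes, Gsc, Mixl1, Mesp1, Mesp2, Tbx6, Cdx1, Cdx2 and Evx1. They were chosen by name from 22232 mouse protein-coding genes and not by a rule on measured values. Earlier results of these data were known when the choice was made. For each gene, every peak was taken that lay within 2500 bp of a protein-coding start site or over the gene body in 10 ChIP-seq peak lists. Number of peaks, bases covered and fold enrichment over the background were read from the lists by mark, stage and genotype. A covered base is a base of the start-site window that lies inside a listed peak.

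The primitive streak is the transient structure of the gastrulating embryo through which epiblast cells leave to form mesoderm and endoderm. Its regulators are kept silent in pluripotent and neural cells by Polycomb group proteins, which act on CpG-rich promoters. Polycomb repressive complex 1 places ubiquitin on histone H2A (H2AK119ub1), and Polycomb repressive complex 2 methylates histone H3 (H3K27me3). PCGF5 is a RING finger subunit that defines one variant form of the first complex. Genes of the streak are classical targets of both marks in embryonic stem cells, and neural differentiation requires that they stay off.

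The lists came from the mouse Sox1-GFP line 46C, in which GFP is placed at the Sox1 locus. H2AK119ub1 and H3K27me3 were each profiled in wild type embryonic stem (ES) cells and in ES cells with the label shPCGF5. That label stands for a stably integrated short hairpin against Pcgf5, called PCGF5-depleted here. Both marks were also profiled in both genotypes at day 6 of neural differentiation in suspension, labelled NPC. NPC is thus a label of stage. By flow cytometry the study found a smaller share of Sox1-GFP positive cells after PCGF5 loss than in wild type at that stage. Whether the NPC libraries of the genotypes held the same mix of cells was not tested. Clonal clusters of the hairpin-infected cells were grown under drug selection, and the labels do not say how many clones entered a library. PCGF5 itself was profiled with a Flag antibody in ES cells and in NPC. Those cells are labelled wild type, and by the study's methods they carry a Flag tag knocked in at Pcgf5. ES cells were grown in LIF with 2i on mitomycin-treated mouse embryo fibroblasts, which are also mouse cells and can themselves carry Polycomb marks. Whether fibroblast chromatin entered the ES libraries was not tested. Of 16 libraries, 6 were inputs and 10 had a peak list. Each group held 1 library, so no difference below has replicate error or a test, and each describes those libraries. The depth of the libraries is unknown, because the lists hold no read counts.

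The lists differed in size. H2AK119ub1 lists held 3845 to 8672 peaks, H3K27me3 lists 10234 to 14759, and the Flag lists 653 in ES and 12013 in NPC. They also differed in their weakest peaks. Peaks with a q-value above 0.05 numbered 1040 for H3K27me3 in wild type ES, 584 in depleted ES and 0 in both NPC lists. The H2AK119ub1 lists held 27 to 254 such peaks, and the Flag lists held only peaks with q of at most 0.01. Since coverage can vary with the size of a list, counts and sums over the 10 genes stand beside those for all protein-coding genes or for the whole list. RNA was not analysed here, and the cell labels were checked only against peaks of the histone marks at marker genes. Of 5 pluripotency genes (Pou5f1, Nanog, Zfp42, Esrrb, Klf4), 1 had an H3K27me3 peak in wild type ES (Esrrb) and 3 had one in wild type NPC (Zfp42, Esrrb, Klf4). Among the neural genes found in the annotation (Nes, Pax6, Pou3f2, Cdh2), 3 had such a peak in wild type ES (Pax6, Pou3f2, Cdh2) and 3 in wild type NPC (Nes, Pax6, Pou3f2). Nes, an intermediate filament gene of neural progenitors, thus had an H3K27me3 peak in wild type NPC and none in wild type ES. For H2AK119ub1 it was the reverse at Nes, with a peak in wild type ES and none in wild type NPC. Other markers did not follow Nes: Pax6 and Esrrb had an H2AK119ub1 peak in both wild type lists, and Klf4 in wild type NPC alone. In depleted NPC all 4 neural genes had a peak of each mark. Among the pluripotency genes there, Esrrb had both marks and Klf4 had H3K27me3 alone. Cdh2 had its H3K27me3 peak in wild type ES and none in wild type NPC.

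Bases just upstream of the starts of 5 of the genes are printed here in the mouse reference NCBIM37 (mm9), 250 bases each in the direction of transcription, with every CpG in capitals. T is shown because it carried a PCGF5 peak in NPC. Mixl1 had the most CpG of the printed set. Cdx2 and Evx1 had the widest domains, and Tbx6 had no peak near its start or over its body. T lies at chr17:8627038-8627287 (plus strand), Mixl1 at chr1:182627166-182627415 (minus strand), Cdx2 at chr5:148118847-148119096 (minus strand), Evx1 at chr6:52263242-52263491 (plus strand) and Tbx6 at chr7:133924747-133924996 (plus strand).
T: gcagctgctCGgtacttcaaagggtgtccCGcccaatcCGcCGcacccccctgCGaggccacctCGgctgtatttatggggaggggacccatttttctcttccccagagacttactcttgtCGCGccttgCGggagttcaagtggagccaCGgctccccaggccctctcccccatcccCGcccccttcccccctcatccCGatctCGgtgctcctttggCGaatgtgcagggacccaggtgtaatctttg
Mixl1: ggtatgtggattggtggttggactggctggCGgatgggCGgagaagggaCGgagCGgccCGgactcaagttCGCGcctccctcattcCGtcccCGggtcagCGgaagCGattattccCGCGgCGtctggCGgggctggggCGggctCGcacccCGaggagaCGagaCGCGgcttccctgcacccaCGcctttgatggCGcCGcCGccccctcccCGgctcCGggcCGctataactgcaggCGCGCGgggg
Cdx2: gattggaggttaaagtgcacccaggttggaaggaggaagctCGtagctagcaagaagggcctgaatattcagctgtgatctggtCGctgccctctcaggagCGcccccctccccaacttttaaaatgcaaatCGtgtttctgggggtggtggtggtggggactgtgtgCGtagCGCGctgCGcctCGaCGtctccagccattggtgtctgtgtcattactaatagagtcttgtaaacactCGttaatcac
Evx1: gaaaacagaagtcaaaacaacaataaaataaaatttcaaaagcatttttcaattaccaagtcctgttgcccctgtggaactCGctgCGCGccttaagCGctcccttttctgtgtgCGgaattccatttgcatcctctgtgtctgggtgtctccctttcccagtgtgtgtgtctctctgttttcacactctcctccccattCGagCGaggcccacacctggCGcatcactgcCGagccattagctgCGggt
Tbx6: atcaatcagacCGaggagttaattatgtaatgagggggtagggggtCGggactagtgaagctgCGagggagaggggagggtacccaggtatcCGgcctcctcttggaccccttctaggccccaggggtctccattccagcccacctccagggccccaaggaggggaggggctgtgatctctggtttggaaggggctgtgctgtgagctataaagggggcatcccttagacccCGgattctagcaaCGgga

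The printed stretches held 31 CpG at Mixl1, 14 at T, 11 at Cdx2, 10 at Evx1 and 6 at Tbx6. Over 300 bases around the start (250 before, 50 after), the 10 genes ranged from 5 CpG at Mesp1 and 7 at Tbx6 to 34 at Mixl1 and 39 at Cdx1. All 22227 promoters of the same length had a median of 11 CpG and quartiles of 3 and 23. Only Mixl1 and Cdx1 were thus above the upper quartile, and none of the 10 was below the lower one. In wild type NPC an H3K27me3 peak spanned the whole printed stretch of T, Mixl1 and Cdx2, and that of Evx1 from position -178 onward (counted from the start). Tbx6, with 7 CpG in the 300 bases, had no peak over its stretch in any list. Mesp1, with 5, had an H3K27me3 peak over its start in wild type NPC. A relation between CpG count and peaks was not tested.

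Short motifs of factors that act on streak genes were searched on both strands of the same 300 bases. The T-box motif TCACACCT was in 0 of the 10 promoters and in 1.1% of all promoters. The TCF/LEF core CTTTGAT, bound by the nuclear effectors of Wnt signalling, was in 2 (Mixl1 and Cdx1) against 3.5% of all. The FOXH1 core AATNNACA, bound by a partner of the Nodal signal transducers, was in 3 (Mixl1, Mesp1, Mesp2) against 11.2%. The motifs do not contain one another, and a match is a description of letters, not of binding.

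H3K27me3 was the mark the 10 genes carried most often. In wild type ES, 8 of 10 had a peak near a start site, where 13.5% of all protein-coding genes did, and Tbx6 and Cdx1 had none. In PCGF5-depleted ES 6 of 10 had one against 13.0% of all genes, with Gsc and Mixl1 now also without. In NPC, 9 of 10 had one in wild type cells (15.9% of all genes) and 9 in depleted cells (15.6%), every gene but Tbx6. H2AK119ub1 was found at fewer of them. Near the starts 5 genes had an H2AK119ub1 peak in wild type ES (6.82% of all genes), 5 in depleted ES (6.05%), 7 in wild type NPC (5.04%) and 5 in depleted NPC (4.22%). Flag-PCGF5 peaks were near the starts of 0 genes in ES (0.819% of all genes) and 2 in NPC (14.1%), T and Cdx1.

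Over the gene bodies the counts were similar. H3K27me3 peaks were over 7 of the 10 in wild type ES (15.9% of all genes), 6 in depleted ES (14.7%), 9 in wild type NPC (16.2%) and 9 in depleted NPC (15.7%). H2AK119ub1 peaks were over 5 in each list, where all genes gave 9.95% in wild type ES, 8.86% in depleted ES, 5.29% in wild type NPC and 5.34% in depleted NPC. The 5 were not the same genes throughout: Cdx2 and Evx1 were in every list, and Mixl1 in NPC alone. Flag-PCGF5 peaks were over 0 gene bodies in ES (1.39% of all genes) and over T and Cdx1 in NPC (21.0%).

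**Figure D1:**
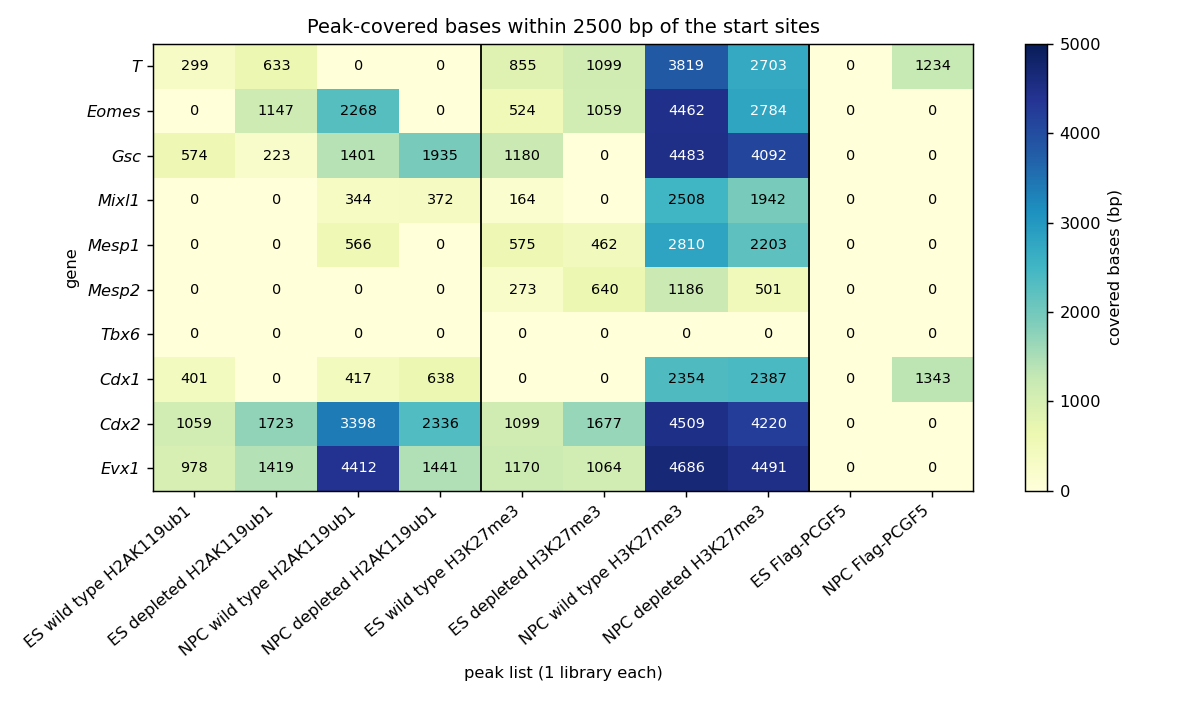
Bases covered by peaks within 2500 bp of the start sites, in bp, for the 10 genes (rows) in the 10 peak lists (columns, 1 library each); the colour scale runs from 0 to 5000 bp. The NPC H3K27me3 columns hold the highest values, up to 4686 bp at Evx1, and the row of Tbx6 is 0 throughout.

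T, Eomes and Tbx6 are the T-box factors of the set. T is the defining gene of the streak and is needed for posterior mesoderm and notochord. Its H3K27me3 peaks covered 855 bp in wild type ES, 1099 bp in depleted ES, 3819 bp in wild type NPC and 2703 bp in depleted NPC, in a window of 5503 bp made by 2 start sites. NPC were thus higher than ES in both genotypes, and depleted NPC lower than wild type NPC. In wild type NPC 1 peak of 3196 bp ran from position -1418 to 1777 bp (counted from the start, downstream positive), with a fold enrichment of 4.53. A second wild type peak of 623 bp and 5.35-fold lay upstream of it, from -2166 to -1544 bp. Depleted NPC had 3 peaks: one of 1032 bp at -2285 to -1254 bp, one of 1061 bp and 6.69-fold at -1016 to 44 bp, and one of 610 bp at 457 to 1066 bp. H2AK119ub1 at T went the other way between stages. It covered 299 bp in wild type ES and 633 bp in depleted ES, and 0 bp in both NPC lists.

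The PCGF5 peak at T in NPC was 1234 bp wide and ran from position -1156 to 77 bp. Its fold enrichment was 2.44, and by p-value it stood at the 82.3 percentile of that list. All of it lay inside the wild type NPC H3K27me3 peaks and 86.0% inside those of depleted NPC, while no H2AK119ub1 peak of wild type NPC touched it. Farther from the starts, in the stretch drawn in the peak maps, 4 more NPC PCGF5 peaks were listed. At T one lay at -4753 to -4328 bp, and beyond Mesp2 one lay at 7531 to 7777 bp. Upstream of Tbx6 one of 1652 bp lay at -4633 to -2982 bp, over the start of the neighbouring gene Ypel3, 4270 bp away. Just beyond the end of Eomes one of 883 bp lay at 8153 to 9035 bp, inside the wild type H3K27me3 peak there.

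Eomes encodes the T-box factor that directs streak cells toward definitive endoderm and cardiac mesoderm. H3K27me3 covered 524 bp of its window in wild type ES, 1059 bp in depleted ES, 4462 bp in wild type NPC and 2784 bp in depleted NPC. Depleted minus wild type NPC was -1678 bp, the greatest difference of the 10 genes for this mark in NPC. The peaks were more and shorter in depleted cells, 6 with the widest at 903 bp, where wild type had 3 with the widest at 2944 bp. A further wild type NPC peak of 1927 bp, from position 7914 to 9840 bp at the gene end, was met in the depleted list by one of 248 bp. Its H2AK119ub1 coverage was 0 bp in wild type ES, 1147 bp in depleted ES, 2268 bp in wild type NPC and 0 bp in depleted NPC. Eomes therefore had H2AK119ub1 near its start in only 1 genotype at each stage, and in the opposite one.

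Tbx6, which specifies paraxial mesoderm against a neural fate, had no peak near its start or over its body in any of the 10 lists. Counting start-site windows alone, 14625 other genes also had no peak in any of the 10 lists. A list without a peak does not show that the mark was absent.

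**Figure D2:**
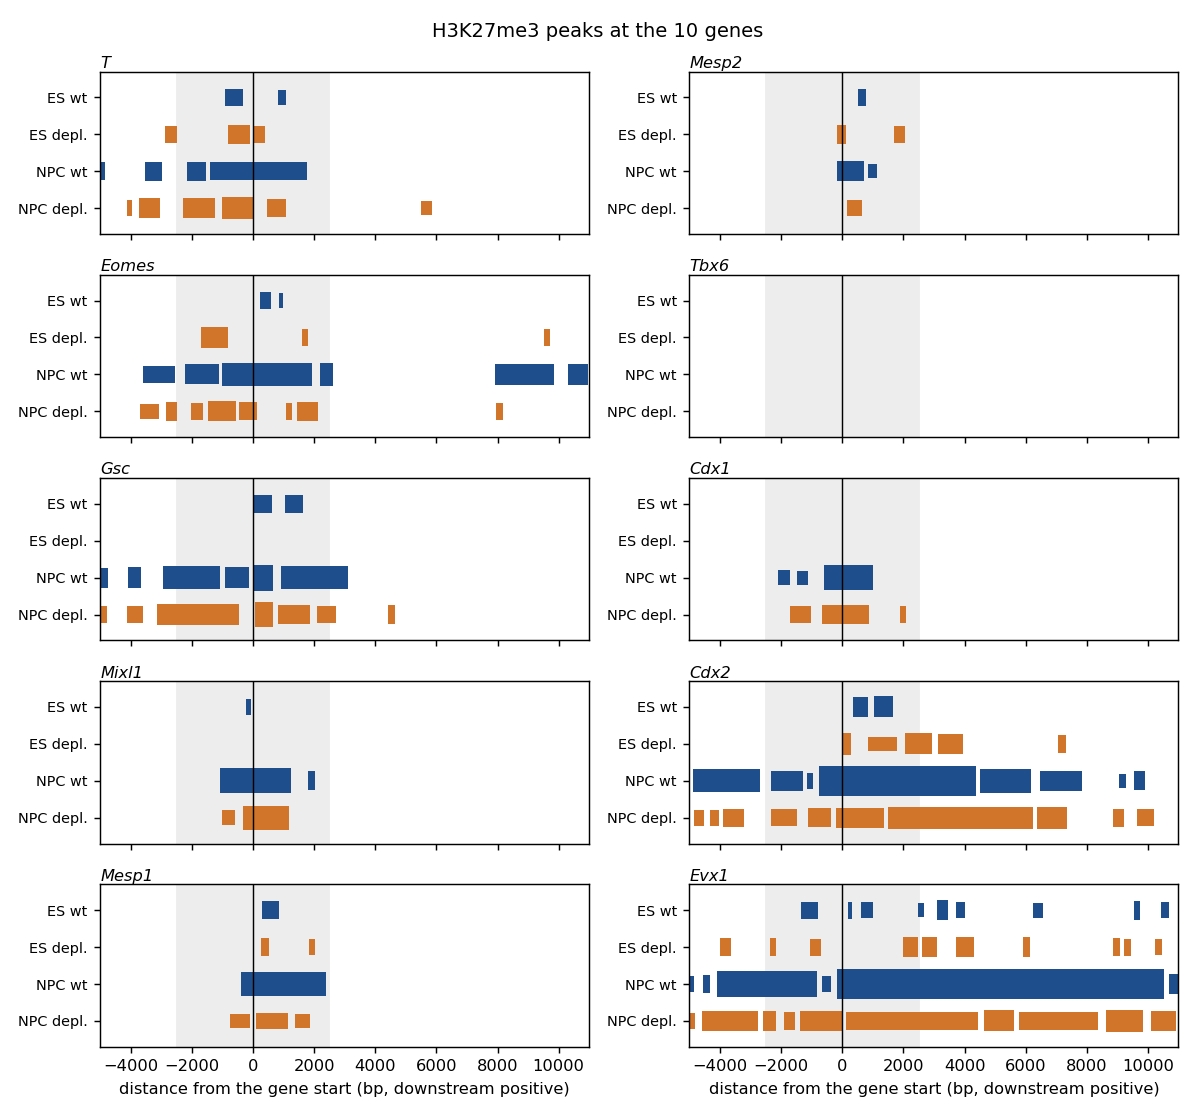
H3K27me3 peaks at each of the 10 genes by distance from the gene start in bp; blue bars are wild type and orange bars PCGF5-depleted, 1 row per library, with every listed peak in the plotted range drawn, bar height grows with fold enrichment, and grey marks 2500 bp either side of the gene start. Peaks were few and short in ES and long in NPC, and Evx1 in wild type NPC held the widest, 10704 bp.

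Gsc, Mixl1 and Evx1 are homeobox genes of the streak. Gsc marks the organizer, the source of axial mesendoderm. Its H3K27me3 coverage was 1180 bp in wild type ES, 0 bp in depleted ES, 4483 bp in wild type NPC and 4092 bp in depleted NPC, in a window of 5001 bp. For this mark, Gsc was the only gene of the set with over 1000 bp in 1 ES list and none in the other. In NPC both genotypes had 4 peaks. H2AK119ub1 at Gsc covered 574 bp in wild type ES, 223 bp in depleted ES, 1401 bp in wild type NPC and 1935 bp in depleted NPC. Its 6 peaks in depleted NPC included one of 10.77-fold, at the 95.0 percentile of that list. The wild type NPC list had 2 peaks of at most 7.45-fold, and the higher of them stood at nearly the same rank of its own list, the 94.3 percentile. The start of a predicted gene, Gm10000, lies 1161 bp from that of Gsc, so most of these peaks are near both starts and cannot be told apart by gene.

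Mixl1, which acts in mesendoderm formation, had 1 H3K27me3 peak of 164 bp in wild type ES and none in depleted ES. In NPC the coverage was 2508 bp in wild type and 1942 bp in depleted cells, with peak folds of 7.98 and 7.6. Its H2AK119ub1 appeared in NPC alone, 344 bp in wild type and 372 bp in depleted cells.

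Evx1 marks the posterior streak and lies at the 5′ end of the HoxA cluster. It had a peak in all 8 histone lists and in neither Flag list, as did 237 other genes, Cdx2 among them. H3K27me3 covered 1170 bp in wild type ES, 1064 bp in depleted ES, 4686 bp in wild type NPC and 4491 bp in depleted NPC. The window was thus near its ceiling of 5055 bp in both NPC lists. The peaks themselves differed more in width: in wild type NPC a single peak of 10704 bp, the 5th widest of its list, ran from position -178 to 10525 bp at 10.33-fold, and in depleted NPC the widest was 4316 bp at 5.17-fold, followed downstream by separate peaks. With 10000 bp of flank on either side, the gene had 17787 bp covered in wild type NPC and 16079 bp in depleted NPC. H2AK119ub1 at Evx1 covered 978 bp in wild type ES, 1419 bp in depleted ES, 4412 bp in wild type NPC and 1441 bp in depleted NPC. Depleted minus wild type NPC was -2971 bp, the greatest difference of the set for that mark.

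Mesp1 and Mesp2 encode basic helix-loop-helix factors, the first of early cardiac and cranial mesoderm, the second of somite boundaries. The genes are neighbours on chromosome 7, with starts 16939 bp apart, so their windows do not overlap. H3K27me3 at Mesp1 covered 575 bp in wild type ES, 462 bp in depleted ES, 2810 bp in wild type NPC and 2203 bp in depleted NPC. The wild type NPC value was 1 peak of 7.5-fold over the whole gene body, while depleted NPC had 3 peaks of at most 3.89-fold. Mesp2 held less, 273 bp in wild type ES, 640 bp in depleted ES, 1186 bp in wild type NPC and 501 bp in depleted NPC. It was the single gene with fewer H3K27me3 bases in depleted NPC than in depleted ES. H2AK119ub1 was listed near Mesp1 in wild type NPC alone, at 566 bp, and near Mesp2 in no list.

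Cdx1 and Cdx2 are the caudal homeobox genes, which pattern the posterior body, and Cdx2 also founds the trophectoderm. H3K27me3 at Cdx1 was listed at 0 bp in both ES lists, 2354 bp in wild type NPC and 2387 bp in depleted NPC. Its H2AK119ub1 covered 401 bp in wild type ES, 0 bp in depleted ES, 417 bp in wild type NPC and 638 bp in depleted NPC. Cdx1 was thus the one gene of the set with H2AK119ub1 but no H3K27me3 in wild type ES, a peak near the bottom of its list (1.9 percentile). The NPC PCGF5 peak at Cdx1 was 1343 bp wide, began 151 bp after the start and had a fold of 2.16, at the 31.7 percentile. Of its bases, 62.8% were inside wild type NPC H3K27me3 peaks and 15.9% inside H2AK119ub1 peaks.

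Cdx2 had H3K27me3 over 1099 bp in wild type ES, 1677 bp in depleted ES, 4509 bp in wild type NPC and 4220 bp in depleted NPC. Its widest NPC peaks were alike in length, 5126 bp in wild type and 4773 bp in depleted cells, but had folds of 10.00 and 6.42. H2AK119ub1 covered 1059 bp in wild type ES, 1723 bp in depleted ES, 3398 bp in wild type NPC and 2336 bp in depleted NPC. Cdx2 and Evx1 were the first and second of the set for H2AK119ub1 in both ES lists, Evx1 was first in wild type NPC, and in depleted NPC Gsc stood between them.

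As a share of the window, which removes differences in window length, H3K27me3 in wild type NPC was ordered Evx1 92.7%, Cdx2 90.2%, Gsc 89.6%, Eomes 79.0%, T 69.4%, Mesp1 56.2%, Mixl1 50.1%, Cdx1 47.1%, Mesp2 23.7% and Tbx6 0%. With 1 library, no spread shows which neighbours in that order differ. In depleted NPC the first 3 and the last 2 places were held by the same genes, at 88.8%, 84.4%, 81.8%, 10.0% and 0%. Eomes and T were next at 49.3% and 49.1%, close to Cdx1 at 47.7%.

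The question of the neural stage was which marks the streak genes carried at day 6 of neural differentiation. From wild type ES to wild type NPC, H3K27me3 coverage was higher at 9 of the 9 genes with a peak in either list, and 74.0% of all genes with a peak moved that way. Summed over the 10 genes it was 5840 bp in ES and 30817 bp in NPC. That is a difference of 2.40 on the log2 scale, beside 1.41 for all genes and 1.16 for the whole lists. Covered bases are not the amount of a mark. By Western blot the study found total H3K27me3 falling gradually during neural differentiation, in wild type and Pcgf5 knockout cells. At T, Eomes, Gsc, Mixl1, Mesp1 and Cdx2 every base covered in ES was also covered in NPC. Depleted cells showed a sum of 6001 bp in ES and 25323 bp in NPC, a log2 difference of 2.08 beside 1.24 for all genes, with 8 of 9 genes higher (72.7% of all genes). Among genes with a peak, the 9 had a median of 3819 bp in wild type NPC, where all 3530 marked genes had 1303 bp. T, Eomes, Gsc, Cdx2 and Evx1 were each above the 90th percentile (90.8 to 96.4).

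H2AK119ub1 differed in extent from H3K27me3 over the same step. From wild type ES to wild type NPC 7 of 8 genes had more covered bases and T had fewer, whereas 42.6% of all genes had more. The sum was 3311 bp in ES and 12806 bp in NPC, a log2 difference of 1.95 beside 0.25 for all genes and -0.09 for the whole lists. In depleted cells 5 of 7 genes had more (35.4% of all genes). The sum there was 5145 bp in ES and 6722 bp in NPC, or 0.39 on the log2 scale beside -0.53 for all genes. Some differences in these counts were small, 16 bp at Cdx1 in wild type and 22 bp at Evx1 in depleted cells. Evx1, Cdx2 and Eomes together made up most of the wild type NPC sum.

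**Figure D3:**
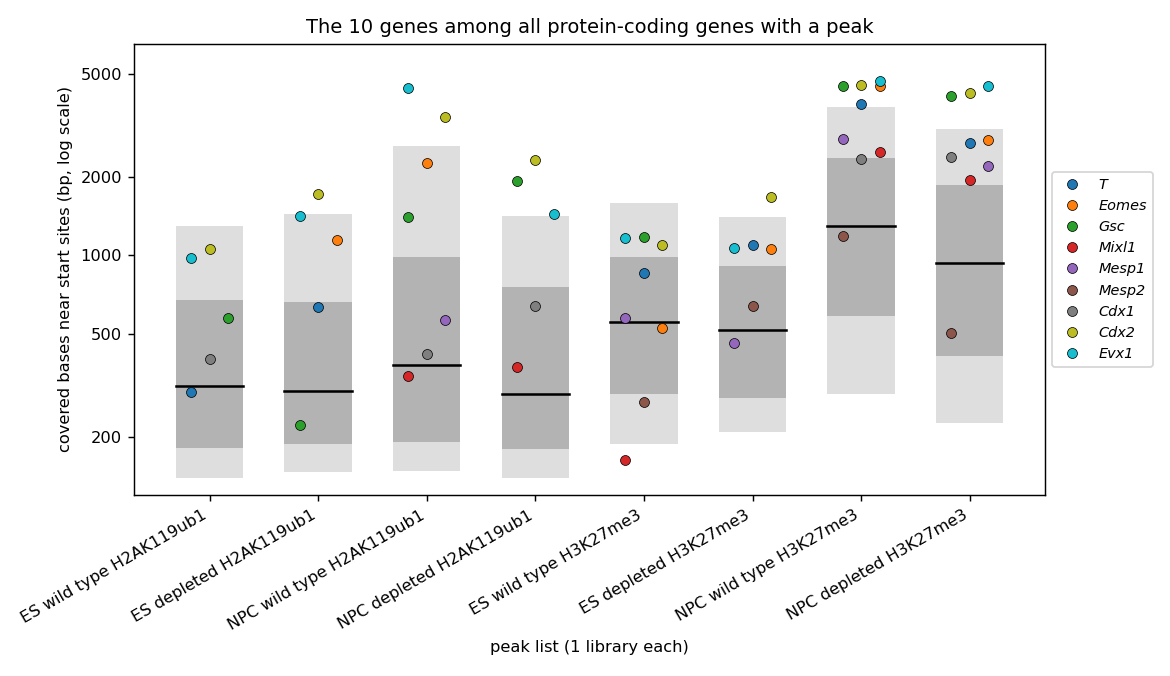
Covered bases near start sites (bp, log scale) of the 10 genes, as coloured points, where they had a peak, in the 8 histone lists; light bars run from the 10th to the 90th percentile of all protein-coding genes with a peak in that list, dark bars from the 25th to the 75th, and black lines are medians. In wild type NPC H3K27me3, 5 of the 9 points lie above the light bar.

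The comparison of genotypes asked how the marks at these genes differed between wild type and PCGF5-depleted cells. In NPC the genotypes share a stage label, and whether they share a mix of cells was not tested. In NPC H3K27me3 coverage was lower in depleted cells at 8 of 9 genes, where 63.6% of all genes with a peak were lower. Cdx1 was the exception, by 33 bp. The sum was 30817 bp in wild type and 25323 bp in depleted NPC, a log2 difference of -0.28 beside -0.35 for all genes and -0.24 for the whole lists, so the size of the difference at these genes was close to that of the lists. The number of peaks went up while their bases went down: 23 peaks with a median width of 1055 bp in wild type NPC, and 30 with a median of 677 bp in depleted NPC. The whole lists moved the same way, from 11371 peaks with a median of 453 bp to 14759 with a median of 360 bp. Of the 9 genes, Mesp2 differed most on the log2 scale (-1.24), followed by Eomes (-0.68) and T (-0.50), and Evx1, Cdx2 and Gsc differed by -0.06, -0.10 and -0.13.

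For H2AK119ub1 in NPC, 4 of 7 genes had fewer covered bases in depleted cells (Eomes, Mesp1, Cdx2, Evx1), and 3 had more (Gsc, Mixl1, Cdx1). At Mixl1 the difference was only 28 bp. Of all genes with a peak, 63.6% had fewer. The sums of 12806 bp in wild type and 6722 bp in depleted NPC differed by -0.93 on the log2 scale, the same as all genes (-0.93), and the whole lists by -1.05.

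In ES the genes went in both directions. H2AK119ub1 was lower in depleted cells at 2 of 6 genes, Gsc and Cdx1, against 56.0% of all genes, and the sum went from 3311 to 5145 bp, 0.64 on the log2 scale, while all genes were at -0.14. The direction rests on the setting: depleted minus wild type was 1834 bp here, -533 bp with a window of 1000 bp and -3 bp with the higher-scoring 50% of each list. H3K27me3 was lower at 4 of 8 genes (Gsc, Mixl1, Mesp1, Evx1), against 54.5% of all genes. The sums of 5840 and 6001 bp differed by 0.04 on the log2 scale, and the difference of 161 bp became -1633 bp with the narrower window and -699 bp with the higher-scoring peaks. At Eomes and Mesp2 the ES H3K27me3 peaks of the genotypes shared no base. The stage and genotype comparisons use the same lists, so they are not independent of each other.

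**Figure D4:**
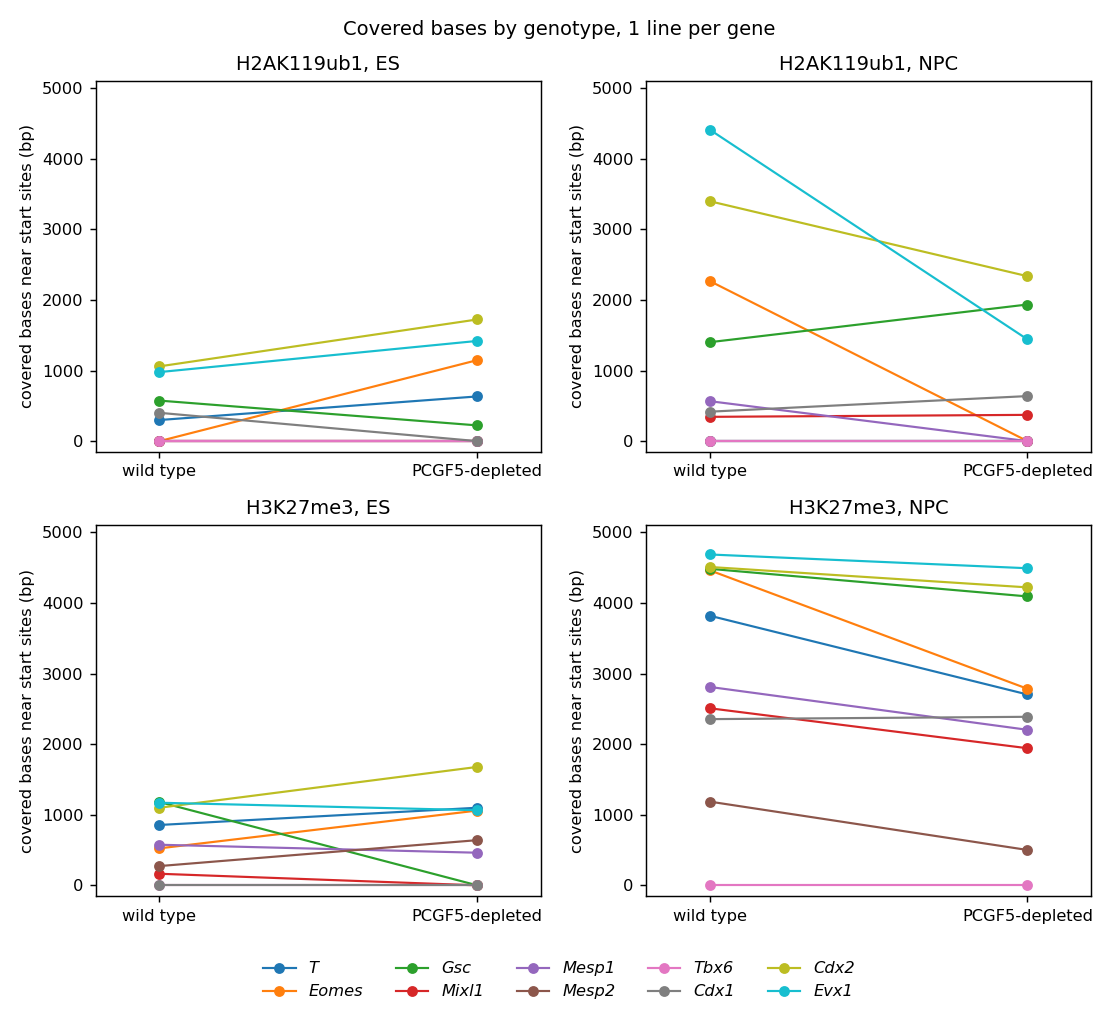
Covered bases near start sites (bp) in wild type and PCGF5-depleted cells for each of the 10 genes, 1 line per gene and 1 library per point, by mark and stage. For H3K27me3 in NPC, 8 lines go down and that of Cdx1 is nearly flat; for H2AK119ub1 in NPC, Evx1 goes from 4412 to 1441 bp.

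H2AK119ub1 bases near the 10 starts lay inside H3K27me3 peaks of the same cells for 39.2% in wild type ES, 32.2% in depleted ES, 90.1% in wild type NPC and 88.8% in depleted NPC. Over all protein-coding genes the shares were 47.9%, 27.2%, 91.9% and 88.0%. The set was thus below all genes in wild type ES, above them in depleted ES and close to them in both NPC. Within the set the overlap in wild type ES was uneven: all 299 bp at T and 85.7% at Gsc, but 0.4% at Evx1, where both marks were present side by side. In wild type NPC the Evx1 share was 96.0% and that of Cdx2 94.6%, against 40.8% at Mesp1.

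**Figure D5:**
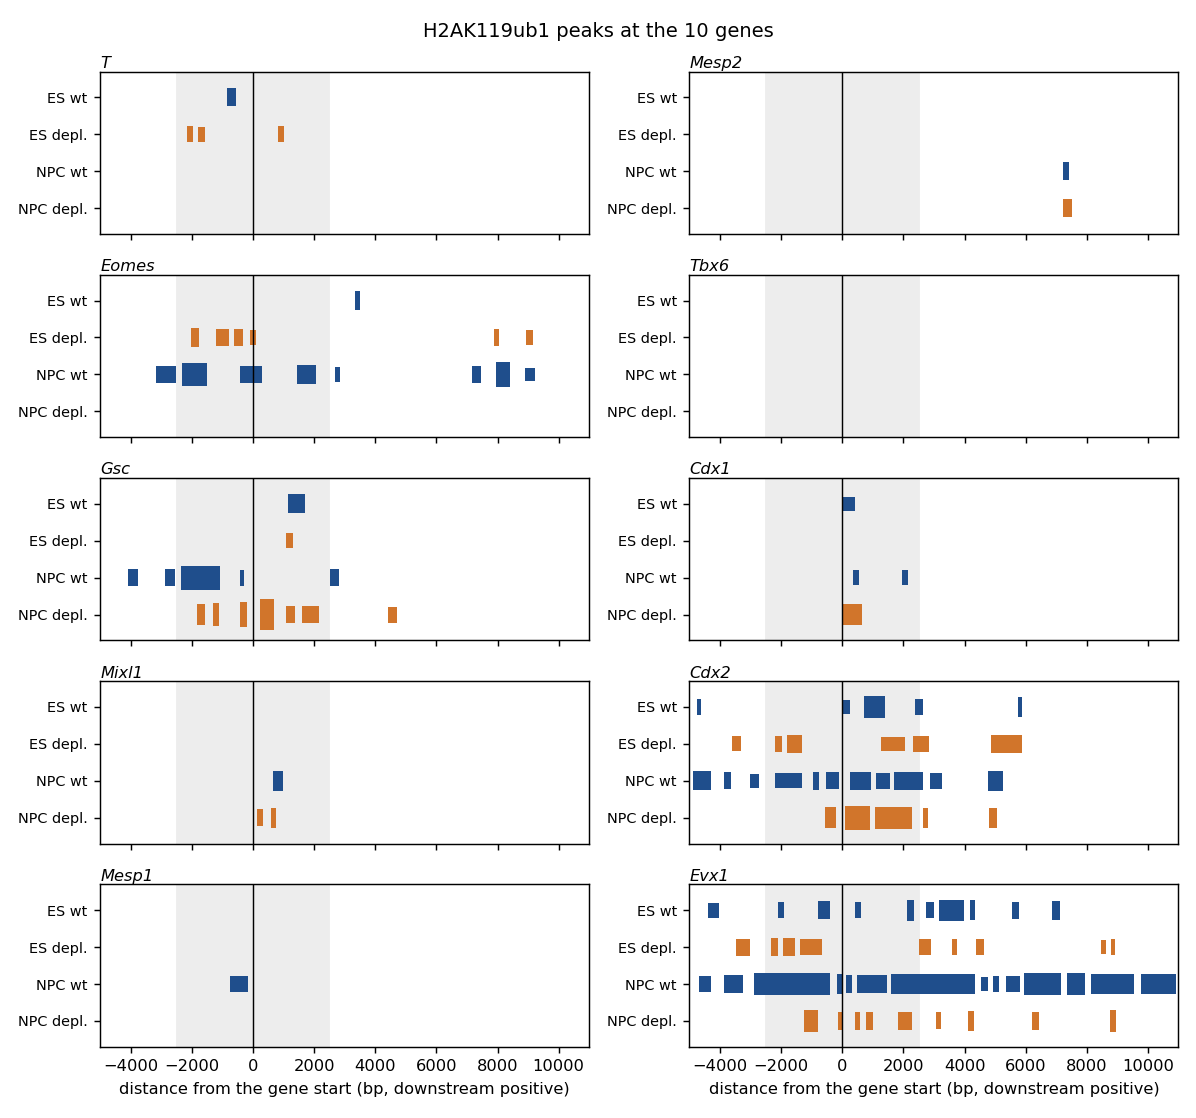
H2AK119ub1 peaks at each of the 10 genes by distance from the gene start in bp; blue bars are wild type and orange bars PCGF5-depleted, 1 row per library, with every listed peak in the plotted range drawn, bar height grows with fold enrichment, and grey marks 2500 bp either side of the gene start. Eomes has peaks inside the grey window in depleted ES and wild type NPC only, and the 2494 and 2745 bp peaks at Evx1 in wild type NPC have only shorter ones in their place in the depleted list.

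Genes with the most similar coverage over the 8 histone lists were found by Euclidean distance on log2(bp + 1). For T they were Gcgr (distance 0.69) and Cys1 (0.86), which like T had H2AK119ub1 in ES alone and H3K27me3 in all 4 lists. For Gsc they were Dio3 (0.78) and its neighbour Gm10000 (1.68), which shares its window. For Cdx2 they were Nkx2-5 (0.74), a cardiac homeobox gene, and Hoxd12 (1.05). The on-off pattern was compared over the histone lists and the Flag lists together. That pattern was shared by 1 other gene for Cdx1, 6 for Mixl1 and 9 for Gsc, and by 31 for T and 43 for Eomes. For T and Cdx1 a match thus also required a Flag-PCGF5 peak in NPC, so their counts are not those of the histone pattern alone.

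A further 28 genes of gastrulation, ligands, receptors and transcription factors, were counted in the same way. H3K27me3 peaks were near the starts of 16 in wild type ES (13.5% of all genes), 18 in depleted ES (13.0%), 24 in wild type NPC (15.9%) and 21 in depleted NPC (15.6%). H2AK119ub1 peaks were near 13 in wild type ES (6.82%), 13 in depleted ES (6.05%), 15 in wild type NPC (5.04%) and 14 in depleted NPC (4.22%). Flag-PCGF5 was near 0 in ES and 4 in NPC (Nodal, Foxh1, Lhx1, Pdgfra), where 14.1% of all genes had one. Of the 24 with an H3K27me3 peak in either NPC list, 18 had fewer bases in depleted cells and 6 had more, beside 63.6% of all genes with fewer. The most covered in wild type NPC were Tbx3, a T-box gene of limb and heart (8745 bp, and 5662 bp in depleted NPC), Lhx1 of the organizer (7711 and 5733 bp) and Pdgfra, a receptor of mesoderm (5273 and 3458 bp), with windows of their own lengths. Foxh1, Cer1, Msgn1 and Meox1 had 0 bp in wild type NPC, as Tbx6 did.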

How the data were processed

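ChIP-seq peak lists of 10 libraries were used, and 6 input libraries without a list were not analysed here. The authors trimmed reads, aligned them to mm9 with Bowtie2 and called peaks for each library by itself with MACS2 2.1.0, with no pooling. The deposited columns hold a score, the fold enrichment (a ratio over the local background), and the -log10 p-value and -log10 q-value of each peak. The authors made histone chromatin with MNase and light fixation, and sonicated Flag chromatin after double fixation. A fly spike-in was added to the histone libraries and does not enter the deposited fold values. Signal between peaks is not in the lists.

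Overlap with start sites and bodies of GENCODE M1 genes was computed with pandas 2.3.3 and tested on simulated windows, with 0 differences. Covered bases of the start-site windows were compared with bedtools 2.31.1, with 0 differences over 22232 genes. Gene-body overlaps were not compared. A percentile is a rank by -log10 p-value within a list, or, for covered bases, among genes with a peak. No test was possible with 1 library per group. Named were all 10 genes, the 3 most and the least covered of the 28 others by H3K27me3 in wild type NPC (4 tied at 0 bp), and the 2 genes most like T, Gsc and Cdx2. The 4 of them with a PCGF5 peak were named after their values were seen. Gene sets and settings were chosen with earlier results of these data known.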

Additional observations from a re-analysis of the deposited data

Results flagged for a closer look

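The difference in covered bases between genotypes had one sign in ES and the other in NPC for the values given here, and none was tested, since each group had 1 library. The sums over the 10 genes, PCGF5-depleted minus wild type, were 1834 bp in ES and -6084 bp in NPC for H2AK119ub1, and 161 bp and -5494 bp for H3K27me3. Under 7 alternative settings, each pair of sums kept opposite signs in 5.

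For H2AK119ub1 the difference in ES and then in NPC was 1147 and -2268 bp at Eomes, 664 and -1062 bp at Cdx2, and 441 and -2971 bp at Evx1. Gsc (-351 and 534 bp) and Cdx1 (-401 and 221 bp) went the other way. For H3K27me3 it was 244 and -1116 bp at T, 535 and -1678 bp at Eomes, 367 and -685 bp at Mesp2, and 578 and -289 bp at Cdx2.

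Several of these rest on the setting. Opposite signs were kept under 7 of 7 alternatives for H2AK119ub1 at Eomes and H3K27me3 at T and Mesp2. They were kept under 6 for H3K27me3 at Eomes and Cdx2 and H2AK119ub1 at Evx1, 5 for H2AK119ub1 at Cdx1, and 4 for H2AK119ub1 at Gsc and Cdx2. With a 1000 bp window the ES difference was -532 bp at Cdx2 and -207 bp at Evx1 for H2AK119ub1. It was -304 bp at Eomes for H3K27me3. Among the 6 for H3K27me3 at Cdx2, the 1000 bp window gave -58 bp in ES and 43 bp in NPC. Both signs were thus turned there.

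The stage difference, NPC minus ES, went in opposite directions in wild type and in depleted cells for H2AK119ub1 at Eomes (2268 and -1147 bp) and for H3K27me3 at Mesp2 (913 and -139 bp). These differences were not tested either. Their signs stayed opposite under 7 of 7 alternatives at Eomes and 5 at Mesp2.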

How the results depend on the processing

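Results were recomputed under 7 alternatives, and gene-body counts under the 3 that select peaks. Of 268 values of counts and sums, 221 moved by at most 1.5 times, 43 moved more and 4 reversed, and the cause was not tested. Of 700 values for single genes, 89 moved more. In order ES wild type, ES depleted, NPC wild type and NPC depleted, or for sums as named, the values that moved were as follows.

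With a 1000 bp window, depleted minus wild type sums reversed in ES to -533 bp (H2AK119ub1) and -1633 bp (H3K27me3) and were -1445 and -2652 bp in NPC. NPC minus ES sums were 3203 bp for wild type H2AK119ub1, 11973 bp for wild type H3K27me3 and 10954 bp for depleted H3K27me3. H2AK119ub1 marked 3 genes in depleted ES. Depleted ES had more H2AK119ub1 at 1 gene and fewer at 4, and more H3K27me3 at 2. Depleted NPC had more H3K27me3 at 3. Between stages 2 genes had less H2AK119ub1 in wild type and 0 less H3K27me3 in depleted cells.

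With a 5000 bp window, depletion differences were -12041 bp for H2AK119ub1 in NPC and 2453 bp for H3K27me3 in ES, stage differences for H2AK119ub1 were 14479 bp in wild type and 625 bp in depleted cells, and 1 gene (Mesp1, 421 bp) had an ES PCGF5 peak.

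With the higher-scoring 50% of each list, ES depletion sums reversed to -3 bp (H2AK119ub1) and -699 bp (H3K27me3), and the depleted H2AK119ub1 stage sum was 2858 bp. Genes marked near the start were 3 and 3 for ES H2AK119ub1, 5 for wild type ES H3K27me3 and 1 for NPC PCGF5; over the body 2, 3 and 1 in depleted ES H2AK119ub1, depleted ES H3K27me3 and NPC PCGF5. Depleted cells had more H2AK119ub1 at 2 genes in ES and 1 in NPC, and more H3K27me3 at 2 in NPC. Between stages 0 genes had less H2AK119ub1 in wild type and 0 less H3K27me3 in depleted cells.

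With equal numbers of top-scoring peaks (3845, 10234 and 653 by mark), ES depletion sums were 711 bp (H2AK119ub1) and 636 bp (H3K27me3), and the depleted H2AK119ub1 stage sum was 4140 bp. H2AK119ub1 marked 3 and 3 genes in ES and 3 bodies in depleted ES, and PCGF5 marked 0 starts and 0 bodies in NPC. Depleted ES had more H2AK119ub1 at 2 genes, and 0 (wild type) and 1 (depleted) genes had less of it in NPC. Peaks with q of at most 0.05 gave 435 bp for H3K27me3 in ES. Counting by peak centre gave 2 genes with more H3K27me3 in depleted NPC.

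No paired analysis was possible because each group had 1 library. Coverage depends on depth and on how peaks were split or joined by the caller, and neither can be read from a list. The window holds at most 5001 to 5650 bp, so genes near that ceiling, Evx1, Cdx2 and Gsc in NPC, cannot show a greater width there.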
